A study of Mus musculus with 2 samples.

Results

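Genes of vesicle trafficking and of lysosome-related organelles were examined in a map of Aiolos, an Ikaros family transcription factor (gene Ikzf3), on chromatin of mouse natural killer (NK) cells. The genes were chosen by symbol from the genes that the authors assigned to their Aiolos peaks: Rab proteins (Rab followed by a digit), subunits of the adaptor protein (AP) complexes, subunits of BLOC-1 (Bloc1s), vacuolar protein sorting (Vps) proteins, sorting nexins (Snx), syntaxins (Stx) and vesicle-associated membrane proteins (Vamp). This gave 14 peaks, each assigned to a different gene, of 1404 peaks naming 1276 genes. Having a peak is therefore what selected the genes and is no finding. The data come from CUT&RUN, in which an antibody directs micrococcal nuclease to a chromatin protein and the released DNA is sequenced. One library was made from splenic NK cells with the Aiolos antibody and 1 from the same kind of cells without a primary antibody, each from 500000 cells after culture in medium with 50 ng/ml interleukin-15. Strain, age and sex of the mice were not given in the sources used. Neither group was replicated, so no difference here has a replicate check, and each interval below is a 95% interval for counting error alone. A peak list does not measure expression, but of the genes that mark NK cells 4 of 10 carried a peak (Gzmb, Il2rb, Klrb1c and Klrd1). Of these, Gzmb alone had a peak within 1000 bp of its start. The peaks of Klrd1, Klrb1c and Il2rb lay 4.54, 10.1 and 15.1 kb upstream. T cell marker genes had a peak in 0 of 5, B cell ones in 0 of 4 and myeloid ones in 0 of 4. Of all protein-coding genes 5.38% carried a peak, so lists of 4 or 5 genes are too short for a count of 0 to tell anything.

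NK cells kill by secreting perforin and granzymes from cytotoxic granules, which are lysosome-related organelles. Cargo reaches such granules from the trans-Golgi network and endosomes with the help of AP and BLOC complexes, Rab GTPases mark the membranes and recruit motors and tethers, Vps proteins and sorting nexins sort and retrieve cargo on endosomes, and SNARE proteins such as syntaxins and VAMPs drive the final fusion. Inherited loss of Rab27a, Stx11, Stxbp2, Unc13d, Lyst or Ap3b1 function impairs lymphocyte killing in people. The AP complexes of this group are clathrin adaptors and adaptors related to them, not the transcription factor AP-1 of the series title.

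The promoter sequences of 3 genes are shown because they belong to the strongest peaks with a promoter in the RefSeq table used (build GRCm38.p6, the same assembly as mm10). The promoters of Rab1a and Rab5a were added after their letters had been searched, as those with the most Ikaros-type and lysosomal matches among the members. Each run is given 5′ to 3′ on the strand of the gene and ends before the transcription start. Capitals mark matches, read on either strand, to the motifs described further on: the GC box in the runs of Bloc1s3, Rab40c, Rab28, Rab1a and Rab5a, the E-box in Bloc1s3 and Rab5a, the Ikaros core in Rab1a, and the CLEAR element and CRE in Rab5a. The Bloc1s3 run is chr7:19508371-19508620 on the minus strand, lies wholly under its peak and has the summit at base 89.
Bloc1s3: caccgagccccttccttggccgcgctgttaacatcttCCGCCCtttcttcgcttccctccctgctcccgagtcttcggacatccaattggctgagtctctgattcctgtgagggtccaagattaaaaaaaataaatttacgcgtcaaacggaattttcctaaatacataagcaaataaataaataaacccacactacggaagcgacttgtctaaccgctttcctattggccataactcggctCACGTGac
Rab40c is shown at chr17:25919728-25919964 on the minus strand, of which the 121 bases at the 5′ end lie under the peak and the summit lies farther upstream.
Rab40c: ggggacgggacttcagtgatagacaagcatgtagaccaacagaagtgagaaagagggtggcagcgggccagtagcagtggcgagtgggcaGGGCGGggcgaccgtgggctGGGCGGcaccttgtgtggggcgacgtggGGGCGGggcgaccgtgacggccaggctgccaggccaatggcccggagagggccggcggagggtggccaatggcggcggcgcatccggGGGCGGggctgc
The Rab28 run is chr5:41708180-41708429 on the minus strand, has 186 bases under the peak and holds the summit at base 166.
Rab28: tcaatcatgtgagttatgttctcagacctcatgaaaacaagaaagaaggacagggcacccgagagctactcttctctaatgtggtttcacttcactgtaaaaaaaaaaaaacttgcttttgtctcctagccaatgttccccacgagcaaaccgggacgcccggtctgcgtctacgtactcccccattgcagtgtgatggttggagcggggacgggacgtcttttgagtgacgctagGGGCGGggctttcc
Rab1a is shown at chr11:20201162-20201411 on the plus strand, wholly under its peak, with the summit just outside the 5′ end.
Rab1a: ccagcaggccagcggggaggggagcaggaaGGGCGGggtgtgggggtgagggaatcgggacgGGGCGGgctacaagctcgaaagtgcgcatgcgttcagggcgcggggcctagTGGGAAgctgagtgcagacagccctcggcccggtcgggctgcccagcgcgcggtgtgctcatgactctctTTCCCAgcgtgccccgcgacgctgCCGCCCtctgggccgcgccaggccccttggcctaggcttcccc
The Rab5a run is chr17:53478984-53479233 on the plus strand, and 0 of its bases lie under the peak, which is downstream of the start.
Rab5a: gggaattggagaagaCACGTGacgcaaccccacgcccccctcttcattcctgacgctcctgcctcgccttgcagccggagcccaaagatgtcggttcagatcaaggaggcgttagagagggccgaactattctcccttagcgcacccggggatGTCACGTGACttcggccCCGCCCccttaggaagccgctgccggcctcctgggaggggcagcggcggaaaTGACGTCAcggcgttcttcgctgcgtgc

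The runs differ in composition. The Bloc1s3 run had a GC content of 46.8%, and the 101 bases around its summit 46.5%, with runs of A and T in its 3′ part. Rab28 had 50.4% over the run and 60.4% over the 101 bases around its summit, whereas Rab40c reached 71.7% and Rab1a 72.4%. The strongest peak for which sequence was at hand thus lay over the run with the lowest GC content of the 5.

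Of 185 protein-coding genes with such symbols in the gene table, 14 had an assigned peak, or 7.57% (4.20 to 12.4 by the exact Clopper-Pearson method), beside 5.38% of all 21900 protein-coding genes. Promoter peaks, here peaks centred at most 1000 bp from the start of the transcript they were annotated to, were found at 11 of the 185 genes, or 5.95%, beside 3.79% of all protein-coding genes. The Rab family had 6 of 69 genes with a peak, the AP subunits 2 of 22, BLOC-1 had 1 of 6, Vps 3 of 35 and sorting nexins 2 of 30. Syntaxins had 0 of 15 and VAMPs 0 of 8, with upper interval bounds of 21.8% and 36.9%. The interval of each family included 5.38%, and the selection of the genes allows no test of these shares.

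**Figure D1:**
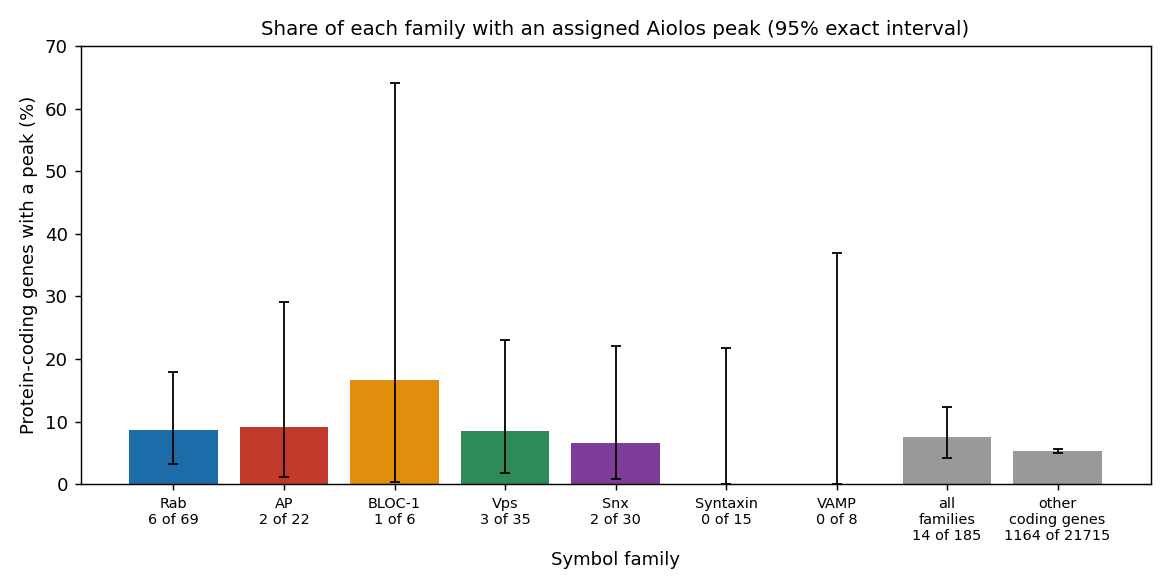
Share of the protein-coding genes of each symbol family with an assigned Aiolos peak (percent, bars), with exact 95% intervals (lines) and the counts under each bar. The 5 families with a peak lie between 6.67% and 16.7%, syntaxins and VAMPs at 0, all families together at 7.57% and the other protein-coding genes at 5.36%.

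Most of these peaks were of a strength usual for the list, and 4 stood higher. Fold enrichment, the authors' ratio of the tag pileup at the summit to the local background (each plus 1), ran from 4.40 to 16.9 over the 14 peaks with a median of 6.72, and from 3.63 to 25.3 with a median of 6.44 over the 1390 other peaks. Of the 14 peaks, 9 lay above the median of the others. A fold of at least 10 was reached by Ap1m1, Bloc1s3, Rab40c and Snx15, which is 4 of 14 peaks (28.6%) beside 9.62% of the whole list. That Ap1m1 and Bloc1s3 are strong was known when the families were put together, so this count is a description. The intervals of these 4 folds overlapped, and the order among them was not resolved at this depth.

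**Figure D2:**
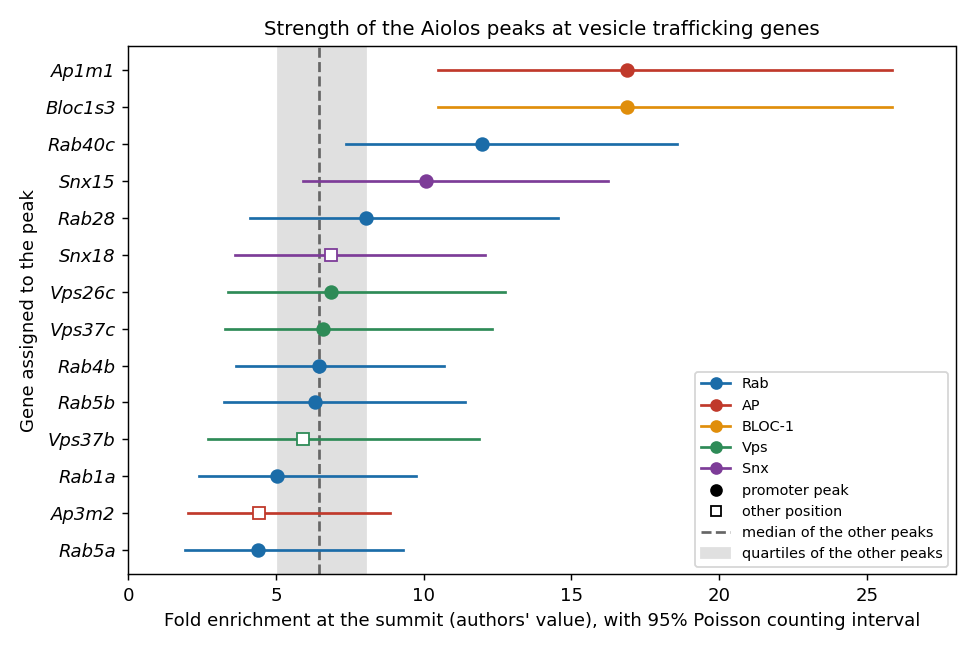
Fold enrichment at the summit (x axis, the authors' value) of each of the 14 peaks, with 95% Poisson counting intervals, coloured by family; filled circles are promoter peaks and open squares other positions. The dashed line is the median of the 1390 other peaks (6.44) and the grey band their quartiles (5.08 to 8.05). Ap1m1, Bloc1s3, Rab40c and Snx15 stand right of the band.

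Ap1m1 and Bloc1s3 had the highest fold of the 14 peaks, and Ap3m2 the second lowest. Ap1m1 encodes the mu subunit of AP-1, which reads tyrosine-based sorting signals on cargo at the trans-Golgi network and endosomes. Its peak, on chromosome 8 at 72239673 to 72240345 (mm10), had 19 tags at the summit against a local background of 0.186 tags, a fold enrichment of 16.9 (interval 10.5 to 25.9) and a -log10 q of 27.7. It overlapped the start, with the summit 187 bp upstream, and at 673 bp it was wider than or as wide as 95.2% of all peaks. The peak of Bloc1s3, a subunit of the complex that sends cargo to melanosomes, platelet dense granules and other lysosome-related organelles, lay on chromosome 7 at 19508233 to 19508656. It had the same values, 19 tags against 0.186, 16.9-fold and a -log10 q of 27.7. These 2 peaks were the only ones in the list with this fold, and 8 of the 1404 peaks had a higher one.

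Bloc1s3 shares its promoter region with a neighbour. Its summit lay 165 bp upstream of the annotated Bloc1s3 start and 138 bp upstream of the RefSeq start of Trappc6a, which is transcribed in the other direction and encodes a subunit of the TRAPP tethering complex. Trappc6a had no peak of its own in the authors' assignment, and the gap between the peak and its gene body was 9 bp. Which of the 2 promoters the peak belongs to cannot be told apart from position alone. At Ap1m1 the next protein-coding gene, Fam32a, lay 14.6 kb from the peak.

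Among the AP subunits that the symbol rule takes, both genes with a peak encode mu subunits, of 6 mu genes in the table. The rule takes neither the alpha subunits of AP-2 nor AP-5, and Ap2a1 and Ap5s1 had promoter peaks of 6.31-fold and 4.10-fold. The other one, Ap3m2, encodes the mu subunit of AP-3 that is known from neurons, and its peak was among the weakest. It spanned 22808187 to 22808515 on chromosome 8, its summit lay 2771 bp upstream of the annotated start, and had 6 tags against 0.586 and a fold of 4.41 (2.02 to 8.87). The RefSeq gene body of Ap3m2 reaches farther, to within 895 bp of the peak. Ap3b1 and Ap3d1, the large AP-3 subunits whose loss in mice disturbs pigment and granule biogenesis, had no assigned peak, and neither had any of the 3 AP-2 or 4 AP-4 genes that the symbols cover. Of the BLOC-1 subunits, the 5 others had no assigned peak. Beside the 5.38% of all protein-coding genes, these groups are too small for a count of 0 to tell anything.

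The 6 Rab peaks were all promoter peaks, with folds of 4.40 to 12.0 and a median of 6.38. All of them belonged to Rab GTPase genes proper, 6 of 59. The 10 genes for Rab effectors and regulators that the symbols also take, such as Rab11fip1 and Rab3gap1, had none. Beside the 5.38% of all protein-coding genes, 10 genes are too few for a count of 0 to tell anything. Rab40c, an unusual Rab with a SOCS box that recruits a ubiquitin ligase, had the strongest of the 6 Rab peaks. The peak on chromosome 17 at 25919844 to 25920545 held 18 tags against 0.586, a fold of 12.0 (7.36 to 18.6) and a -log10 q of 16.6. At 702 bp it was the widest of the group, and its summit lay 680 bp upstream of the start, with the near edge 117 bp upstream. Rab28, an atypical Rab known from cilia and photoreceptors, had 9 tags against 0.242 on chromosome 5 at 41708244 to 41708450, a fold of 8.05 (4.12 to 14.6), with the summit 107 bp upstream. It was 207 bp wide, the narrowest of the 14.

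Endosomal Rabs made up the rest together with Rab1a. Rab4b, which acts in recycling from early endosomes, had 13 tags, the most of these, but against a background of 1.17, and so a fold of 6.45 (3.65 to 10.7), on chromosome 7 at 27178667 to 27179014. Rab5a and Rab5b direct the fusion of early endosomes, and both had a peak while the paralogue Rab5c had none. Rab5b had 9 tags against 0.586 on chromosome 10 at 128696457 to 128696762, a fold of 6.31 (3.23 to 11.4), with the summit 266 bp upstream, where the gene table also places the body of Pmel, a melanosome protein gene. Rab5a had 5 tags against 0.364 on chromosome 17 at 53479744 to 53479975, the lowest fold of the group at 4.40 (1.92 to 9.29), with a -log10 q of 1.99 and the summit 585 bp downstream of the start. Rab1a, which acts between the endoplasmic reticulum and the Golgi, had 7 tags against 0.586 on chromosome 11 at 20201137 to 20201457 and a fold of 5.05 (2.41 to 9.73). Its paralogue Rab1b, and likewise Rab4a and Rab40b, had no assigned peak. With a peak at 5.38% of all protein-coding genes, the lack of one at these paralogues or at Rab5c tells nothing. The intervals of Rab5a and Rab5b overlapped widely, so these values give no order between them.

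Of the Vps genes, those with a peak encode proteins of 2 endosomal sorting machines. Vps26c, a subunit of retriever, which returns integrins and other receptors from endosomes, had 8 tags against 0.315 on chromosome 16 at 94526654 to 94526925 and a fold of 6.84 (3.39 to 12.7). Its summit lay 90 bp downstream of the start the authors used but 111 bp upstream of the RefSeq start, since these starts are 201 bp apart. Vps37b and Vps37c are alternative subunits of ESCRT-I, which sorts ubiquitinated membrane proteins into multivesicular bodies, and they are 2 of 4 Vps37 genes. Vps37c had a promoter peak of 6.60-fold (3.27 to 12.3), 8 tags against 0.364, on chromosome 19 at 10688836 to 10689059, with the summit 148 bp downstream. The peak assigned to Vps37b lay 14.9 kb upstream of its start, on chromosome 5 at 124046807 to 124047275, in an intron of another transcript, within the non-coding gene Gm34086. It had 6 tags against 0.186 and a fold of 5.90 (2.70 to 11.9), and Abcb9 lay about as close to it, at 14.6 kb, as Vps37b, at 14.5 kb. Neither the 10 genes of the HOPS and CORVET tethering complexes nor the 5 of the GARP and EARP complexes had an assigned peak. In the retromer and retriever list Vps26c was the 1 gene of 21 (4.76%), beside 5.38% of all protein-coding genes. At that share, 10 or 5 genes are too few for a count of 0 to tell anything.

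The sorting nexins held 1 promoter peak and 1 distant peak. Snx15, a phosphoinositide-binding protein of endosomes, had 15 tags against 0.586 on chromosome 19 at 6127971 to 6128212, a fold of 10.1 (5.93 to 16.2) and a -log10 q of 12.3, with the summit 53 bp downstream of the start. Snx18, which bends membranes in endocytosis, was assigned an intergenic peak on chromosome 13 at 113580226 to 113580470, 33.2 kb downstream of its annotated start and 11.7 kb past the end of its gene body, with 10 tags against 0.606 and a fold of 6.85 (3.61 to 12.1). No other gene of the table lay closer to it: the next, a non-coding gene, was 41.5 kb away.

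No syntaxin or VAMP gene was named by the authors' annotation. Those without a listed peak included Stx11, Stx7, Stx8, Stx3 and Stx4a, and Vamp2, Vamp4, Vamp7 and Vamp8. Families of 15 and 8 genes are too small for a count of 0 to tell anything, beside 5.38% of all protein-coding genes. Stx11, Vamp7 and Vamp8 are known from the fusion of cytotoxic granules with the plasma membrane. Another syntaxin was met by a peak credited elsewhere, which was noticed after the values were seen. A peak of 13.5-fold (7.92 to 21.7, 15 tags, -log10 q 19.8) on chromosome 19 at 8741448 to 8741726 overlapped the body of Stx5a, a SNARE of traffic through the Golgi. Its summit lay 205 bp downstream of the first RefSeq start of Stx5a and 174 bp upstream of another, but the authors assigned it to the microRNA gene Mir6992, whose annotated start was 117 bp from the summit. The count of 0 syntaxins is by the authors' assignment of 1 gene per peak, and Stx5a was the only syntaxin gene met in this way. The peak over Stx5a would have the third highest fold of the families if counted with them.

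Summits lay on both sides of the start. Over the 11 promoter peaks they were upstream in 6 and downstream in 5, with a median of -107 bp, beside -79 bp over the 899 other promoter peaks. None of the 11 fell within the 100 bp just upstream of the annotated start, where 69 of the 899 others (7.68%) had theirs. At that share, 11 peaks are too few for a count of 0 to tell anything. By the annotated starts, upstream summits belonged to Rab40c, Rab1a, Rab5b, Ap1m1, Bloc1s3 and Rab28, and downstream ones to Snx15, Vps26c, Rab4b, Vps37c and Rab5a. Counted from the RefSeq starts, the Rab28 summit lay 85 bp upstream, inside those 100 bp, and the Vps26c summit 111 bp upstream. A promoter position was found for 78.6% of the 14 peaks (exact interval 49.2 to 95.3) and for 64.7% of the 1390 others (62.1 to 67.2), and the intervals overlapped. The peak itself overlapped the start in 6 of 14, those of Ap1m1, Bloc1s3, Snx15, Vps26c, Rab4b and Rab1a.

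**Figure D3:**
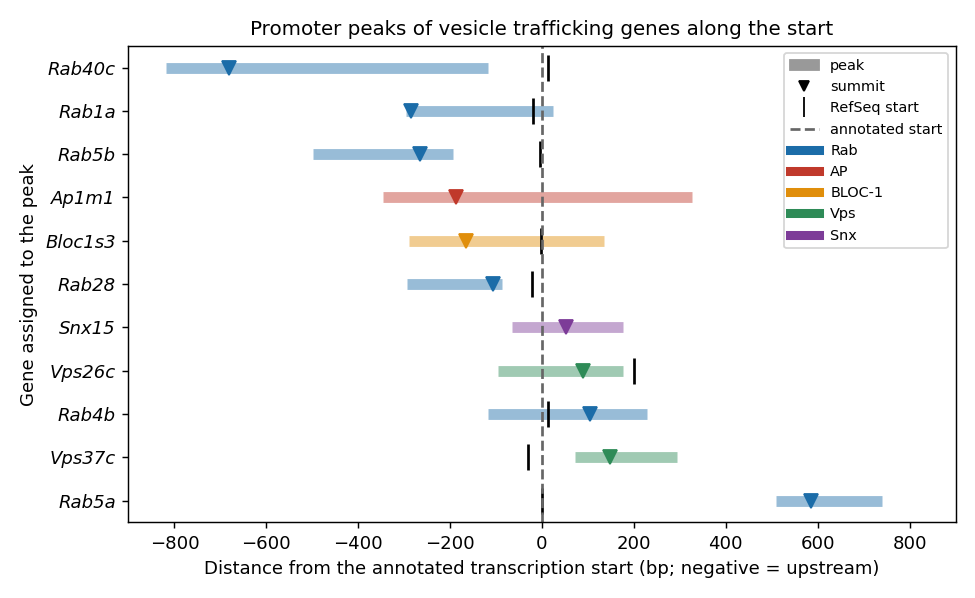
Extent (bars) and summit (triangles) of the 11 promoter peaks along the distance from the annotated transcription start in bp, negative upstream, coloured by family; black ticks mark the RefSeq start where the table holds one. The summits run from 680 bp upstream at Rab40c to 585 bp downstream at Rab5a, and for Vps26c the RefSeq tick lies 201 bp downstream of the annotated start.

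Depth sets how firmly these peaks can be read. The 14 summits held 5 to 19 tags with a median of 9, and the others 4 to 63 with a median of 8. Of the 14, 9 (64.3%) rested on 10 tags or fewer, as did 71.2% of the others. The background was at its floor of 0.186 tags at 3 of the 14, Ap1m1, Bloc1s3 and Vps37b, and at 26.0% of the others. The same pileup therefore gave different folds: 9 tags gave 8.05-fold against 0.242 at Rab28 and 6.31-fold against 0.586 at Rab5b. In the list as a whole, 4 tags were the fewest at the floor, where the lowest fold was 4.22. A family gene with no listed peak may have had fewer tags than this or a higher background, and absence of binding cannot be read from the list. The lowest -log10 q in the list was 1.31, and the members nearest to it were Ap3m2 at 1.93 and Rab5a at 1.99. Candidates below that limit are not analysed here.

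**Figure D4:**
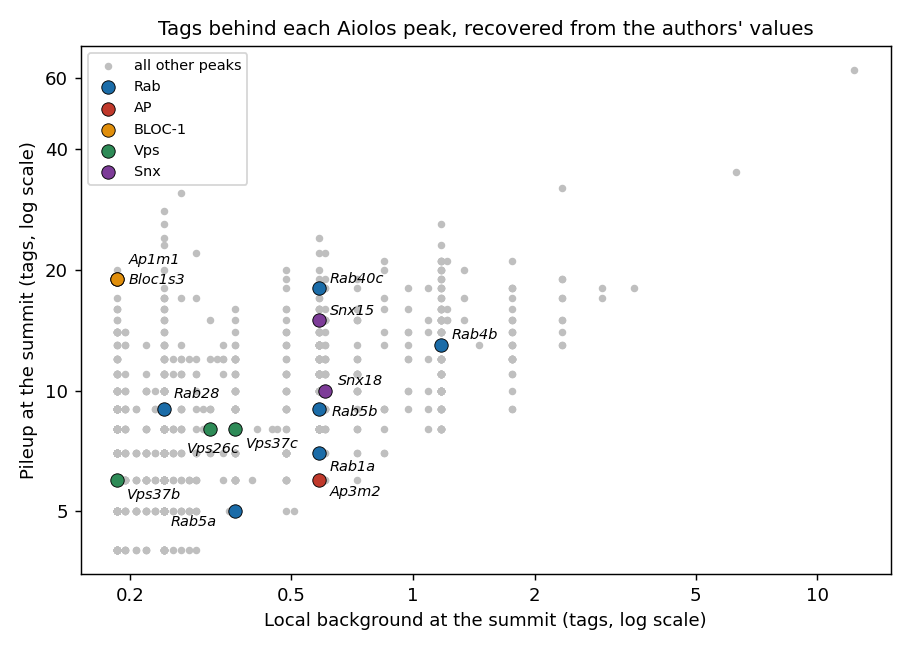
Tags at the summit (y axis, log scale) against the local background in tags (x axis, log scale), both recovered from the authors' fold and p-value, for the 1390 other peaks (grey) and the 14 peaks of the families (coloured; Ap1m1 and Bloc1s3 share a point). Ap1m1, Bloc1s3 and Vps37b lie at the background floor of 0.186, and Rab4b has the highest background of the 14 at 1.17.

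Motif letters were searched on both strands of the 300 bp RefSeq promoter windows, which run from 250 bases before the start to 50 bases from it on. Of the 11 genes with a promoter peak, 9 had such a window within 1000 bp of the peak centre. Positions count the start as base 0. The Ikaros family core TGGGAA was found in 2 of 9 windows, Rab1a and Rab5b (22.2%), beside 22.3% of 674 other genes with a promoter peak and 25.6% of all 32851 windows. In Rab1a it occurred at -137 and -67, and both matches lay under the peak. Around the 3 summits that lie well inside a window, those of Bloc1s3, Rab28 and Vps26c, the 50 bp to either side held TGGGAA in 0 of 3. The Rab5b summit lies just outside its window and was not among these 3, and there the match at -245 was under the peak and 17 bp from the summit. In Rab1a the nearer match was 127 bp from the summit.

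Of the other 8 motifs, GC box and ETS core matched more of the 9 windows than the Ikaros core, the E-box as many, and the remaining 5 fewer. The GC box GGGCGG was present in 9 of 9 windows, beside 68.2% of the other genes with a promoter peak and 35.7% of all windows. The shares are of whole windows, and in Rab28, Rab5b, Rab5a and Vps37c no GC box lay under the peak. The ETS core GGAAGT was present in 4 of 9, Bloc1s3, Rab4b, Vps26c and Vps37c (44.4%), beside 26.7% and 23.8%. The match in Vps37c lay outside its peak. Around the 3 summits inside a window, the 50 bp to either side held the ETS core in 1 of 3, Vps26c. A whole GC box was there in 0 of 3, and the match at Bloc1s3, 46 bp from its summit, crossed the edge. In Rab1a, whose summit lies outside its window, the nearest GC box was 44 bp from the summit. The transcription factor AP-1 motif TGANTCA had 0 matches, beside 4.90% and 7.81%. An E-box, CACGTG, was present in Bloc1s3 at -8 and in Rab5a at -235 and -95 (22.2%, beside 10.8% and 7.15%). In Rab5a the E-box at -95 lies inside a full match to the CLEAR element, the letters bound by TFEB at many lysosomal genes, which had 1 of 9 windows beside 1.48% and 0.326%. Rab5a also held the CRE TGACGTCA at -28 (1 of 9, beside 3.86% and 1.79%), and Rab28 the YY1 motif at 36 (1 of 9, beside 2.82% and 0.633%), while the NRF1 motif had 0 matches (beside 2.23% and 0.971%). All the Rab5a matches and the YY1 match of Rab28 lay outside the peaks of these genes. The windows of the 9 genes were rich in GC, with a median of 64.3%, beside 60.7% in the other genes with a promoter peak and 52.7% in all windows. The part of base composition in the motif shares was not tested. A match is a stretch of letters and not a binding site.

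**Figure D5:**
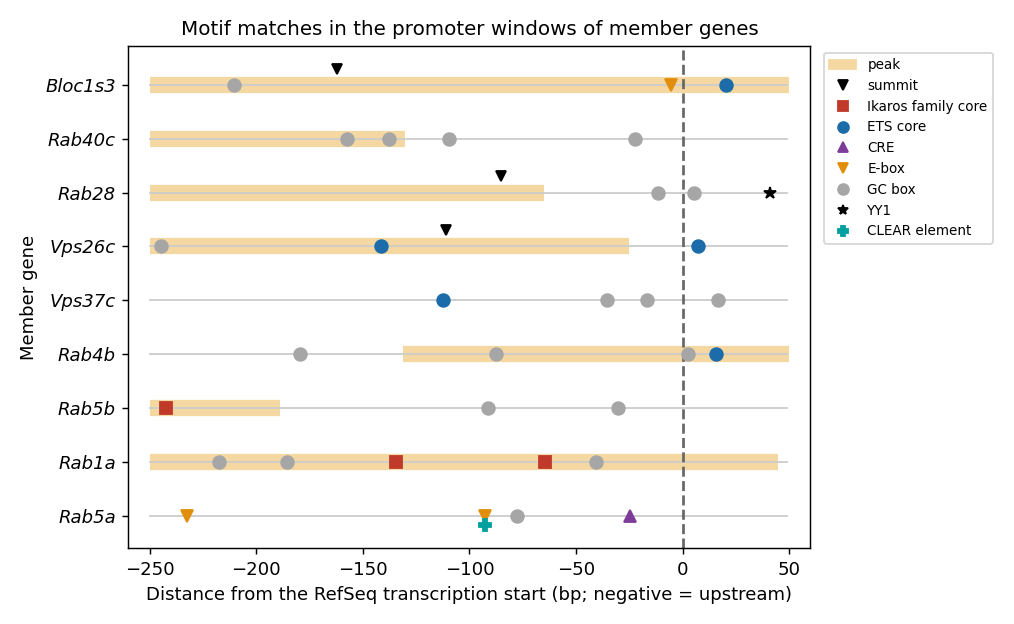
Matches to the searched motifs (symbols) in the promoter windows of the 9 genes that have one, along the distance from the RefSeq start in bp, with the part under the Aiolos peak shaded and the summit marked where it falls in the window. GC boxes occur in all 9 windows, the Ikaros core in Rab1a and Rab5b alone, and the CLEAR element in Rab5a, outside the peak. In Rab28, Rab5b, Rab5a and Vps37c the GC boxes also lie outside the peak.

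The rest of the pathway was taken from 12 lists of trafficking genes, in which 237 genes do not belong to the families. Of these 237, 21 had an assigned peak (8.86%, beside the same 5.38%). Peaks at any distance count here, up to 46.4 kb from the start at Copb1. For the lists below, the share was 5.71% for granule exocytosis, 7.69% for lysosome-related organelles, 19.0% for granule cargo and 13.8% for ESCRT. It was 3.45% for Rab regulators, 6.98% for lysosomal genes, 13.5% for coats, 11.1% for the exocyst and 6.90% for other SNAREs. These shares include family genes, rest on few peaks each and were not tested. In the granule exocytosis list of 35 genes, Sytl2, which encodes a Rab27 effector, had a 5.90-fold peak 7.26 kb into the direction of transcription, and Napa, whose product recycles SNARE complexes, had a promoter peak of 5.05-fold. Rab27a, Unc13d, Stx11, Stxbp2 and Lyst had none. At a share of 5.38% these genes are too few for the lack of a peak to tell anything. In the list of 26 genes of Hermansky-Pudlak syndrome and lysosome-related organelles, Bloc1s3 was joined by Borcs8, a subunit of the BORC complex that couples lysosomes to kinesin, with a promoter peak of 8.05-fold (4.12 to 14.6).

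Granule cargo and its sorting had 4 of 21 genes with a peak at any distance (19.0%, beside 5.38% of all protein-coding genes). A promoter peak was found at 2 of the 21, beside 3.79% of all protein-coding genes. The perforin gene Prf1 had no assigned peak, like most protein-coding genes. M6pr, the cation-dependent mannose 6-phosphate receptor that carries acid hydrolases and granzymes towards lysosomes, had a peak of 8.85-fold (4.66 to 15.6) 6.02 kb upstream and a promoter peak of 5.58-fold. The granzyme gene Gzmb had a promoter peak of 6.17-fold (3.68 to 9.79, 16 tags) with the summit 122 bp downstream, and a second peak of 6.44-fold 22.0 kb upstream. Gzma had 5.86-fold 13.3 kb downstream and 4.71-fold 4.10 kb upstream. Fasl, the gene of the death ligand, had 7.23-fold 21.5 kb downstream. Among 29 ESCRT genes, Mvb12b, another ESCRT-I subunit, had a peak of 8.43-fold 28.8 kb downstream, and Ist1, which regulates the membrane-cutting ESCRT-III, a promoter peak of 5.75-fold, so that with Vps37b and Vps37c 4 of 29 had a peak.

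Of 58 Rab regulators, 2 had a peak: Dennd4a, which encodes a Rab exchange factor, with 10.3-fold (5.68 to 17.3) 13.8 kb upstream, and Mon1b, part of the Rab7 exchange factor family, with a promoter peak of 8.10-fold (4.59 to 13.4). Of 43 genes of lysosomal membranes, enzymes and acidification, 3 had a promoter peak, Atp6v1f (7.39-fold) and Atp6v0e (5.06-fold) of the proton pump and Laptm4a (6.75-fold). Of 37 coat and adaptor genes 5 had a peak, Copb1 at 8.08-fold, Arf6 at 6.60-fold, Heatr5a at 5.07-fold, Sec24c at 4.71-fold and Ap5s1 at 4.10-fold, of which Sec24c and Ap5s1 were promoter peaks. Exoc1, a subunit of the exocyst that tethers vesicles to the plasma membrane, was the 1 of 9 exocyst genes with a peak, at 5.90-fold and 2.30 kb upstream. In the list of 29 other SNAREs and their partners, Snap47 had a peak of 5.06-fold 25.6 kb from its start, beside Napa.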

How the data were processed

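The starting point was the peak list deposited for the series, made from CUT&RUN of NK cells with 1 library per group. Per the submitters' processing notes, MACS2, Bowtie2, Picard and SAMtools were used and the build was mm10. The q cutoff, duplicate filter and use of the control library (and so whether the background comes from it) are not stated there. The deposited columns, per the file headers, hold a signal value, read here as MACS2's fold enrichment, a ratio of pileup plus 1 to background plus 1. They also deposited the -log10 of its p-value and q-value, and a score, which equalled 10 times the -log10 q without decimals at all 1404 peaks. Fold, q and gene assignment are the authors' own values and served to describe and rank peaks within this list.

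Pileup and background were solved from fold and p-value for each peak (largest error in -log10 p 1.75e-05), with the solver tested on simulated data. Intervals of folds are exact Poisson intervals of the pileup with the background fixed, and shares have exact Clopper-Pearson intervals, both for counting error only. Coordinates are 1-based. Genes were matched to the RefSeq table (GRCm38.p6) by identifier, and 14 of 14 also by symbol. No test was run. The members, lists and named genes were chosen with earlier results of these data known. Every family gene with a peak is named, and up to 6 genes with a peak per other list. Sequences were to come from the members with the highest fold, here among promoter peaks with a RefSeq window. Vps26c, next in fold among those, is not shown because its promoter window lies largely within the annotated transcript. Python 3.11.15, SciPy 1.17.1 and pandas 2.3.3 were used.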

Additional observations from a re-analysis of the deposited data

How the results depend on the processing

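Of 30 alternative values, 22 kept within their counting interval or within 1.5 times the count. Stricter sets, of peaks whose -log10 q reached the median or whose fold exceeded it, left 9 member peaks and 9 member genes in each case, without Rab5b, Vps37b, Rab1a, Ap3m2 and Rab5a, by construction of the stricter sets. The median fold of member peaks minus other peaks, 0.062 on the log2 scale, was -0.0032 above the median fold, so its direction is not resolved. It was 0.17 with pileup, and with -log10 q the medians differed by 0.563. Genes whose body a peak overlaps numbered 8 instead of 14, 7 of them members, with Stx5a as the eighth; the members left out have peaks outside the RefSeq body. The share of promoters with TGGGAA was 22.2% in the whole window and 0% around the 3 summits inside a window. Fewer bases and genes were searched there, and Rab5b, whose match lies 17 bp from a summit outside the window, was not among them. The promoter share of 78.6% ranged from 71.4% with a window of 500 bp to 88.9% in the stricter sets. No paired analysis was possible because neither group was replicated. With 5 to 19 tags per peak, depth does not resolve the order of most members.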

Other observations

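Trafficking genes outside the symbol rule or outside the assignment were also met by peaks, as noticed after the values were seen. Ap2a1, the alpha subunit of the endocytic adaptor AP-2, is not taken by the letters of the rule but had a peak of 6.31-fold (3.23 to 11.4, 9 tags) with the summit 335 bp upstream of its start. With it and Ap5s1, a wider symbol rule gave 16 of 212 genes with a peak. A peak assigned to Ncapd3, a condensin gene, had its summit 376 bp upstream of the RefSeq start of Vps26b, a retromer subunit, with 6.38-fold (3.04 to 12.3). A peak assigned to Mcm7, a replication helicase gene, had its summit 907 bp upstream of the RefSeq start of Ap4m1, with 5.60-fold (2.77 to 10.4). A second peak over the Vps37c gene body, 5.90-fold and 21.0 kb from the first, was assigned to Cd5.

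Peaks of other genes lay close to 2 member peaks. The nearest peak to that of Rab4b, 12.0 kb away, was assigned to Egln2, an oxygen-sensing prolyl hydroxylase gene. Rab4b had 6.45-fold, against 11.7-fold at Egln2. The nearest to Snx15, 13.3 kb away, was assigned to Arl2, a small GTPase gene, and had 6.45-fold. For the other members the nearest peak was 21.0 kb or farther away.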
